A study of Mus musculus with 3 samples.

Results

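The 10 genes of Notch signalling described here, called the members, were followed in 3 dendritic cell (DC) subsets of mouse spleen. They encode the receptors Notch1, Notch2 and Notch4, the Deltex proteins Dtx1 and Dtx3, the protease Adam10, the nuclear factors Rbpj and Maml1, the adaptor Numb and the target Hes1. All probe sets that the platform's annotation assigns to these gene symbols were taken, which gave 23 of the 45101 probe sets on the array and 10 of 18194 genes. Plasmacytoid DC (pDC), CD11b+ conventional DC (cDC) and CD8+ cDC came from healthy, naïve female C57BL/6 mice of 6 to 8 weeks. Magnetic depletion of T and B cells preceded the flow sort, RNA of 5 to 8 mice was pooled for each subset, and 20 ng was amplified in 2 rounds for 1 Affymetrix array per subset. With 1 array per subset there is no spread between samples, so no test was run and no p-value is given. Fewer RNA-bearing cells and less RNA per cell cannot be told apart in such pools.

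Notch receptors are membrane proteins that are cut first by a metalloprotease of the ADAM family and then by gamma-secretase after they bind a Delta-like or Jagged ligand on a neighbouring cell. The freed intracellular domain enters the nucleus, where it joins the DNA-binding protein Rbpj and a Mastermind coactivator to switch on targets such as Hes1. Deltex proteins are ubiquitin ligases, and some of them bind the receptor's intracellular part. Notch2 is known for its need in the Esam-bearing CD11b+ cDC and the marginal zone B cells of the spleen. Notch1 is known for committing progenitors to the T lineage.

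Promoter sequences were matched by gene number for 8 of the 10 members in the RefSeq table of the mouse build GRCm38.p6. Hes1 and Dtx3 were not matched. Several start sites are listed for some genes, so the 8 genes had 11 promoters, each read over the 250 bases before the start. The core Rbpj recognition sequence TGGGAA was searched on both strands, where the reverse strand reads TTCCCA. It was found in 21.6% of all 32851 promoters of that length, and in 2 of the members' 11. Both were promoters of Rbpj itself, and since its start sites lie close together they share 1 of the matches. The upstream promoter of Rbpj held 2 matches, a count reached by 2.77% of all promoters. They lie 149 to 144 bases before the start on the forward strand and 65 to 60 bases before it on the reverse strand. It is printed with the promoters of Notch1, Notch4 and Dtx1, which were the 3 members most unequal between subsets. Sequences run 5′ to 3′ on the gene's strand, and capitals mark the matches.
Rbpj, chr5:53590096-53590345, + strand: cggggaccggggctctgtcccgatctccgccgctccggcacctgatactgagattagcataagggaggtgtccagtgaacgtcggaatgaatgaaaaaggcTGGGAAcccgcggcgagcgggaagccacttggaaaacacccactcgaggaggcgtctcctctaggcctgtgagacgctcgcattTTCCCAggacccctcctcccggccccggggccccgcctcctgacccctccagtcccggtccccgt
Notch1, chr2:26503823-26504072, - strand: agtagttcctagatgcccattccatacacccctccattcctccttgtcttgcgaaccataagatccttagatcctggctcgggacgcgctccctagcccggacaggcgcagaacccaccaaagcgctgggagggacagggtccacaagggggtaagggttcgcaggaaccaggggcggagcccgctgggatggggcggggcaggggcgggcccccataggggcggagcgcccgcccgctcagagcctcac
Notch4, chr17:34564045-34564294, + strand: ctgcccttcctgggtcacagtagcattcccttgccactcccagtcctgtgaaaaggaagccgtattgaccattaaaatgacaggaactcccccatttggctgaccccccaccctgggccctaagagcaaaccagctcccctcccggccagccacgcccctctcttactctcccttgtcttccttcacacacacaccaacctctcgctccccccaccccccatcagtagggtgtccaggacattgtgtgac
Dtx1, chr5:120711670-120711919, - strand: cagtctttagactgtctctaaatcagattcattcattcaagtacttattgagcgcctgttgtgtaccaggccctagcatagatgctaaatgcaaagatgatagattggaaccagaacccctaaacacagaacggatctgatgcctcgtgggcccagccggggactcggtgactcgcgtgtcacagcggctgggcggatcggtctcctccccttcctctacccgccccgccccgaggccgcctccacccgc
The promoters of Notch1, Notch4 and Dtx1 held no match, which says only that these letters are absent from this window. Dinucleotides CG numbered 21 in the Rbpj promoter, 16 in that of Notch1, 15 in that of Dtx1 and 4 in that of Notch4. The median over all promoters was 6, and the Notch2 promoter held 34. The arrays measure RNA and not binding at these sequences.

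The unit throughout is the deposited signal, an intensity on a linear scale. A background level of 111 was set from 87 probe sets of sensory receptor genes (olfactory, vomeronasal, taste and trace amine), and lower values were raised to it before folds were taken. Where the dimmer array lay at that level, the fold is a lower bound, marked by the words at least. A gene was called higher at 2-fold or more (1 on the log2 scale) with the brighter array above background. For genes with several probe sets, the one with the highest mean log2 signal was used for calls, and for the members the others are given beside it. Over all genes with a second measured probe set, the log2 differences of the pair varied with an SD of 0.86 in the pair of pDC and CD11b+ cDC. The SD was 0.89 for pDC with CD8+ cDC and 0.74 between the cDC subsets. Signals of different genes were not set against each other.

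Between 10336 and 10403 genes lay above background on each array. Marker genes followed the labels. The summed signal of 6 pDC markers was 878775 on the pDC array against 23880 and 16433 on the CD11b+ and CD8+ cDC arrays. That of the 4 measured CD11b+ cDC markers was highest on the CD11b+ array at 113646, and that of the 4 measured CD8+ cDC markers was highest on the CD8+ array at 401580. The 3' to 5' signal ratio of Actb control probe sets ran from 2.91 to 5.71, and that of Gapdh from 9.68 to 17.6. The arrays were kept on the scale the authors deposited. Scaling on 18 probe sets of hybridization spike-ins instead moved the median log2 difference of all genes from near 0 to -0.30 where CD11b+ cDC was subtracted from pDC. It became 0.65 for pDC minus CD8+ cDC, and 0.95 for CD11b+ minus CD8+ cDC. It moved the pDC share of all calls from 51.2% to 34.8% against CD11b+ cDC and from 51.9% to 77.6% against CD8+ cDC, and the CD11b+ share of calls between cDC from 51.0% to 92.1%. All differences below are relative to the bulk of genes.

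Every one of the 10 members had a signal above background on at least 1 array. Of their 23 probe sets, 12 were above background on all 3 arrays, 4 on 1 or 2 arrays and 7 on none. These 7 read between 41.5 and 101.6 and differed over the arrays by at most 0.12 on the log2 scale. The 3 members most unequal between subsets each peaked on a different array. Notch1 was brightest in pDC, Dtx1 in CD11b+ cDC and Notch4 in CD8+ cDC, while Notch2 read nearly alike on the 3 arrays. At 2-fold or more above both other arrays, Notch1 and Dtx3 were called in pDC, Dtx1 in CD11b+ cDC and Notch4 in CD8+ cDC. Of the 11015 genes above background on any array, the rule was met by 10.4% for pDC, by 5.02% for CD11b+ cDC and by 6.02% for CD8+ cDC.

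**Figure D1:**
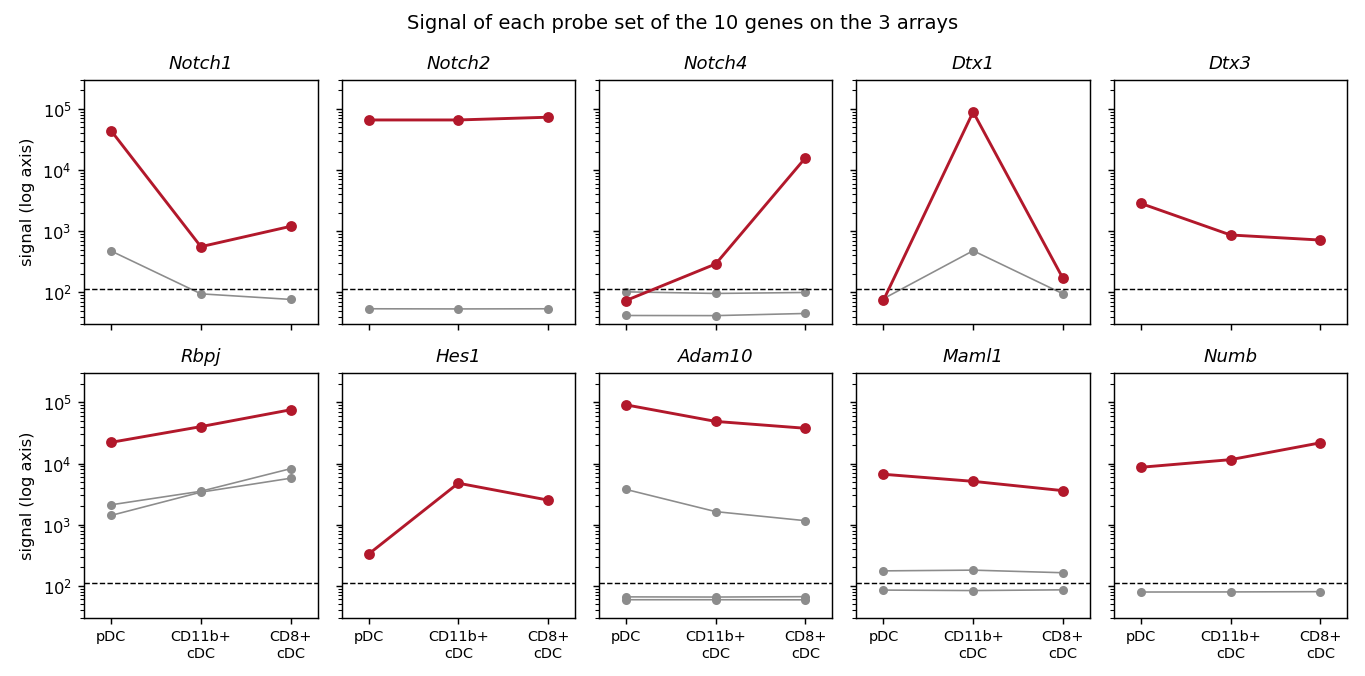
Deposited signal (log axis) of every probe set of the 10 genes on the pDC, CD11b+ cDC and CD8+ cDC arrays, with 1 array per subset. Each line joins the values of 1 probe set, red for the one used for the gene and grey for the others, and the dashed line is the background level of 111; the red line peaks in pDC for Notch1, in CD11b+ cDC for Dtx1 and in CD8+ cDC for Notch4.

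Among the receptors, Notch1 gave a signal of 43858 in pDC, 557 in CD11b+ and 1199 in CD8+ cDC. It was thus bright in pDC and dim in the cDC subsets. The pDC signal was 78.8-fold that of CD11b+ cDC and 36.6-fold that of CD8+ cDC. Of the genes above background on both arrays, Notch1 had the 72nd largest difference of 9943 in the first pair and the 181st of 9905 in the second. The dimmer probe set of Notch1 read 473 in pDC and lay at background in both cDC subsets, a difference of at least 4.26-fold in the same direction. Between the cDC subsets Notch1 was 2.15-fold higher in CD8+ cDC, a call that was lost with spike-in scaling (log2 difference -0.11 for CD11b+ minus CD8+ cDC) and that the dimmer probe set could not measure. T cells also express Notch1, so T cell markers are given beside it. Of 7 measured T cell markers 3 were above background on any array, and Cd3e, Cd3g, Cd3d and Thy1 lay at background on all 3. The summed signal of the 7 markers was 5536 in pDC, 3253 in CD11b+ and 860 in CD8+ cDC, and Cd28 made up 4830 of the pDC sum. The part of T cell RNA in the Notch1 signal was not tested.

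Notch2 gave 65924 in pDC, the same value in CD11b+ and 73077 in CD8+ cDC. The largest fold between subsets was 1.11, and no pair was called. Exact repeats of a value between the pDC and CD11b+ cDC arrays were found at 86 of the 20082 probe sets above background on both. The order of the 3 arrays for Notch2 follows the scaling, since the log2 difference of CD11b+ minus CD8+ cDC went from -0.15 to 0.85 with spike-in scaling. The other Notch2 probe set lay at background on every array. Notch2 is thus measured here by a single probe set.

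Notch4, a receptor best known from endothelium, read 73.3 in pDC, below background, 291 in CD11b+ and 15852 in CD8+ cDC. It was high on the CD8+ cDC array alone. The CD8+ cDC signal was at least 143-fold that of pDC and 54.5-fold that of CD11b+ cDC, the 36th largest difference of the 10086 genes measured on both cDC arrays. For pDC minus CD8+ cDC the log2 difference was -7.16, and it was -5.27 with the 99th percentile background and -6.16 with spike-in scaling. For CD11b+ minus CD8+ cDC it was -5.77, and -4.77 with spike-in scaling. CD11b+ cDC was at least 2.62-fold above pDC, but with the background set at the 99th percentile of the sensory receptor probe sets both arrays fell below it and no difference could be read. The other 2 probe sets of Notch4 lay at background on all 3 arrays, so its difference rests on 1 probe set. Of 8 endothelial markers, Tek, Tie1, Robo4 and Emcn lay at background on all 3 arrays. The summed endothelial signal was 31794 in pDC, 2042 in CD11b+ and 1374 in CD8+ cDC, and Kdr (18604) and Cdh5 (11542) made up most of the pDC sum. Egfl7 read 537, 499.7 and 586 and Pecam1 864, 823 and 351.5 in the same order. The part of endothelial RNA in the Notch4 signal was not tested.

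Of the enzymes and adaptors that act on the receptor, Adam10, the protease of the first cut, gave 91163 in pDC, 48836 in CD11b+ and 37725 in CD8+ cDC. It was brightest in pDC, at 1.87-fold and 2.42-fold the cDC signals, and only the second of these passed 2-fold. A dimmer Adam10 probe set kept the same order at 3770, 1633 and 1160, with 2.31-fold and 3.25-fold. Its other 2 probe sets lay at background. Between the cDC subsets Adam10 differed 1.29-fold, and it was called higher in CD11b+ cDC with spike-in scaling only (log2 difference 1.37).

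Numb, an adaptor that opposes Notch by steering the receptor into endosomes, gave 8682 in pDC, 11568 in CD11b+ and 21803 in CD8+ cDC. CD8+ cDC was brightest, 2.51-fold above pDC and 1.88-fold above CD11b+ cDC, and pDC and CD11b+ cDC differed 1.33-fold. The call against pDC was lost with spike-in scaling, where the log2 difference of pDC minus CD8+ cDC went from -1.33 to -0.69. The second Numb probe set lay at background on every array.

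Dtx1 had the widest range of the members. Its brighter probe set read 73.7 in pDC, below background, 89345 in CD11b+ and 169.5 in CD8+ cDC. The signal was high in CD11b+ cDC and at or close to background elsewhere. CD11b+ cDC was at least 804-fold above pDC and 527-fold above CD8+ cDC. The latter was the largest difference of the 10086 genes measured on both cDC arrays. The dimmer probe set gave 479 in CD11b+ cDC and background in the other subsets, a difference of at least 4.30-fold from each. The direction was the same at both probe sets, and the size was not, as the median of the probe sets gave a log2 difference of -5.88 for pDC minus CD11b+ cDC in place of -9.65. The difference of at least 1.52-fold between CD8+ cDC and pDC was not called.

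Markers of other cells were also unequal on the CD11b+ cDC array where Dtx1 was bright. Dtx1 is known from marginal zone B cells. Of 8 measured B cell markers 4 were above background on any array, and Cd79a, Pax5, Ebf1 and Fcer2a lay at background on all 3. The summed B cell signal was 11493 in pDC, 94410 in CD11b+ and 21367 in CD8+ cDC, of which the inhibitory receptor gene Cd22 made up 78540 in CD11b+ cDC. Ms4a1 and Cd79b were not highest there: Ms4a1 read 223, 11046.5 and 19147 and Cd79b 10103, 4025.5 and 381 in pDC, CD11b+ cDC and CD8+ cDC. Cr2, the complement receptor of marginal zone and follicular B cells, read 509 in CD11b+ cDC and lay at background elsewhere, a call lost with the 99th percentile background. The 6 red pulp macrophage markers were above background on every array and summed to 32609 in pDC, 158898 in CD11b+ and 85106 in CD8+ cDC. The 5 measured neutrophil markers were also above background on every array, with 2309, 16241 and 1174. The part of B cell, macrophage and neutrophil RNA in the signals of Dtx1, Hes1 and the genes Jag1 and Esam described below was not tested.

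Dtx3, a shorter Deltex protein, gave 2844 in pDC, 865 in CD11b+ and 715 in CD8+ cDC. It was brightest in pDC, 3.29-fold above CD11b+ cDC and 3.98-fold above CD8+ cDC. The cDC subsets differed 1.21-fold, and CD11b+ cDC was called higher with spike-in scaling only (log2 difference 1.27). Dtx3 has 1 probe set. The 2 Deltex members thus had opposite orders, with Dtx3 higher and Dtx1 lower in pDC than in CD11b+ cDC.

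In the nucleus, Rbpj, the DNA-binding partner of the cleaved receptors, was measured by 3 probe sets. The brightest gave 22218 in pDC, 40151 in CD11b+ and 75716 in CD8+ cDC. The others gave 1416, 3400 and 5746, and 2112, 3519 and 8234. All 3 probe sets thus had the order pDC, CD11b+ cDC, CD8+ cDC from dim to bright. CD8+ cDC was 3.41-fold above pDC at the brightest probe set and 4.06-fold and 3.90-fold at the others. The neighbours in that order differed less, 1.81-fold between pDC and CD11b+ cDC and 1.89-fold between the cDC subsets, neither of which was called. With spike-in scaling CD11b+ cDC was called above pDC (log2 difference -1.21 for pDC minus CD11b+ cDC) and the cDC subsets differed by 0.08.

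Maml1, the Mastermind coactivator, gave 6672 in pDC, 5112 in CD11b+ and 3599 in CD8+ cDC. Folds were 1.31, 1.85 and 1.42 for pDC over CD11b+ cDC, pDC over CD8+ cDC and CD11b+ over CD8+ cDC, and no pair was called. With spike-in scaling pDC and CD11b+ cDC were called above CD8+ cDC, with log2 differences of 1.53 and 1.5. A second probe set of Maml1 read from 163 to 180 on the 3 arrays, and the third lay at background.

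Hes1, a transcriptional repressor and the classical Notch target, gave 329.5 in pDC, 4767 in CD11b+ and 2521 in CD8+ cDC. The cDC subsets were bright and pDC was dim but above background. CD11b+ cDC was 14.5-fold and CD8+ cDC 7.65-fold above pDC. Of genes measured on both arrays, these were the 383rd largest difference of 9943 and the 654th of 9905. Between the cDC subsets Hes1 differed 1.89-fold toward CD11b+ cDC, which became a call with spike-in scaling (log2 difference 1.91). Hes1 has 1 probe set. It was thus dimmest on the array where Notch1 and Adam10 were brightest.

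**Figure D2:**
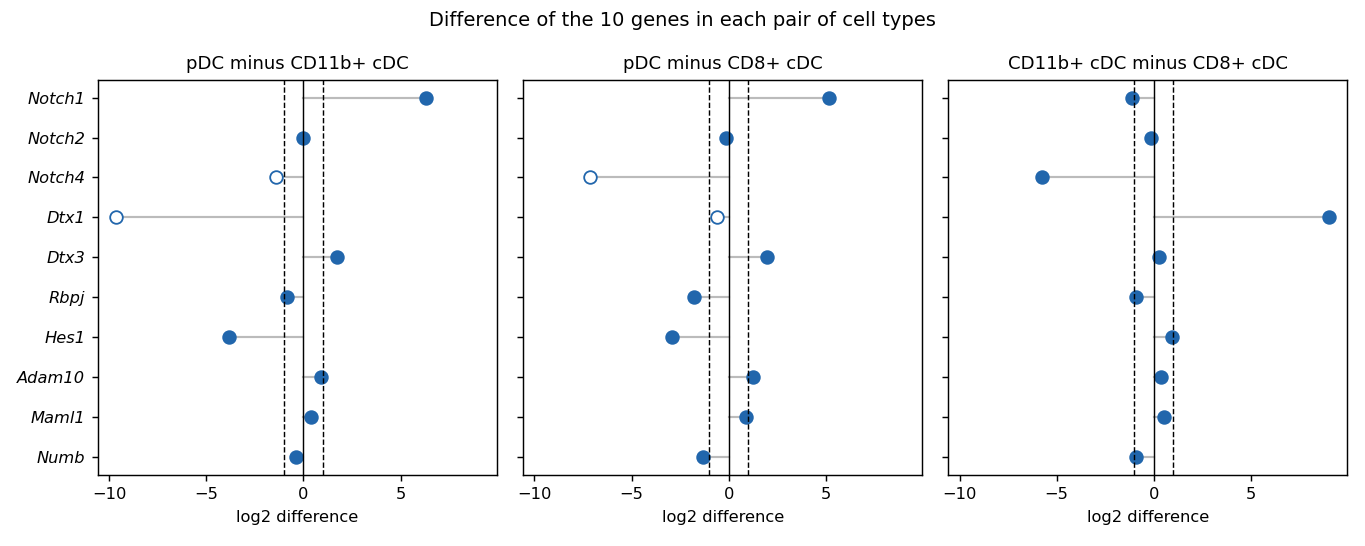
Log2 difference of the signal for the 10 genes in the 3 pairs of cell types. Open circles are lower bounds on the size because the dimmer array lay at background, and dashed lines mark 2-fold; Dtx1 reaches -9.65 for pDC minus CD11b+ cDC and 9.04 for CD11b+ minus CD8+ cDC, while Notch2 stays within 0.15 of 0 in all 3 pairs.

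Counted over the 10 members, 2 were higher in pDC than in CD11b+ cDC (Notch1 and Dtx3) and 3 were lower (Notch4, Dtx1 and Hes1). Of all 10796 genes measured in that pair, meaning above background in at least 1 of its arrays, 15.0% passed toward pDC and 14.3% toward CD11b+ cDC. Against CD8+ cDC, 3 members were higher in pDC (Notch1, Dtx3 and Adam10) and 4 in CD8+ cDC (Notch4, Rbpj, Hes1 and Numb). The shares over all 10821 genes were 16.0% and 14.8%. Between the cDC subsets, Dtx1 was higher in CD11b+ cDC and Notch1 and Notch4 in CD8+ cDC. Over all 10707 genes these directions were called for 10.3% and 9.86%. Spike-in scaling turned this last count into 5 members higher in CD11b+ and 1 in CD8+ cDC. Over all genes, it moved the calls in these directions from 1101 to 4775 and from 1056 to 408. The median log2 difference of the members was -0.21, -0.38 and 0.06 in the 3 pairs, beside 0.01, 0.00 and -0.01 over all genes. The pairs share arrays, so their counts are not separate observations.

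Of 67 further genes of the pathway, sorted by role into 10 lists that also hold the members, 61 were matched. The other 6 were not analysed here. Of the 48 above background in pDC or CD11b+ cDC, 9 were higher in pDC and 9 in CD11b+ cDC. For pDC and CD8+ cDC these counts were 8 and 7 of 46, and between the cDC subsets 3 were higher in CD11b+ and 2 in CD8+ cDC of 45. In the same order, the shares of all genes called were 15.0% and 14.3%, 16.0% and 14.8%, and 10.3% and 9.86%. The median log2 differences of 0.08, 0.07 and 0.00 lay near those of all genes.

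Ligands and the remaining receptor were among the more unequal genes. Dll1, a Delta-like ligand, gave 1378 in pDC and lay at background in both cDC subsets, which makes at least 12.4-fold. Dll4 gave 330.5 in pDC, 138 in CD11b+ and 126 in CD8+ cDC, 2.40-fold and 2.63-fold higher in pDC. The first call was lost with spike-in scaling and both were lost with the background at the 99th percentile. Jag1 had the opposite order, with 137 in pDC, 5745 in CD11b+ and 3267 in CD8+ cDC, 41.8-fold and 23.8-fold above pDC. A dimmer Jag1 probe set lay at background in pDC and read 265 in CD11b+ and 136 in CD8+ cDC. These values were at least 2.38-fold and 1.22-fold above pDC. Jag2 gave 265 in pDC, 210.4 in CD11b+ and 1369 in CD8+ cDC, 5.16-fold and 6.51-fold higher in CD8+ cDC, and its second probe set was above background in CD8+ cDC only, at 1191. Delta-like ligands were thus brighter in pDC and Jagged ligands in cDC, with Jag2 bright in CD8+ cDC and not in CD11b+ cDC. Dll3, Dlk1 and Dlk2 lay at background on all 3 arrays. Notch3 gave 1704.5 in pDC and background in both cDC subsets, at least 15.3-fold. Its value comes from a probe set of the s type, a class that can match transcripts of several genes, and its other probe set lay at background throughout.

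The other Deltex genes were on the pDC side or did not pass 2-fold. Dtx2 gave 51182 in pDC, 9742 in CD11b+ and 17534 in CD8+ cDC, 5.25-fold and 2.92-fold higher in pDC. Its second probe set kept pDC brightest at 8551 against 1563 and 1983. Dtx4 gave 3551 in pDC, 1080 in CD11b+ and 1779.5 in CD8+ cDC, which put pDC 3.29-fold above CD11b+ cDC, and its second probe set was brightest in CD8+ cDC at 3874, so the order of pDC and CD8+ cDC depended on the probe set. Dtx3l gave 9727, 10350 and 8033, with no pair called. Of the 5 Deltex genes, 3 were higher in pDC than in CD11b+ cDC, and Dtx1 was the 1 called lower, beside 15.0% and 14.3% of all genes in those directions.

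**Figure D3:**
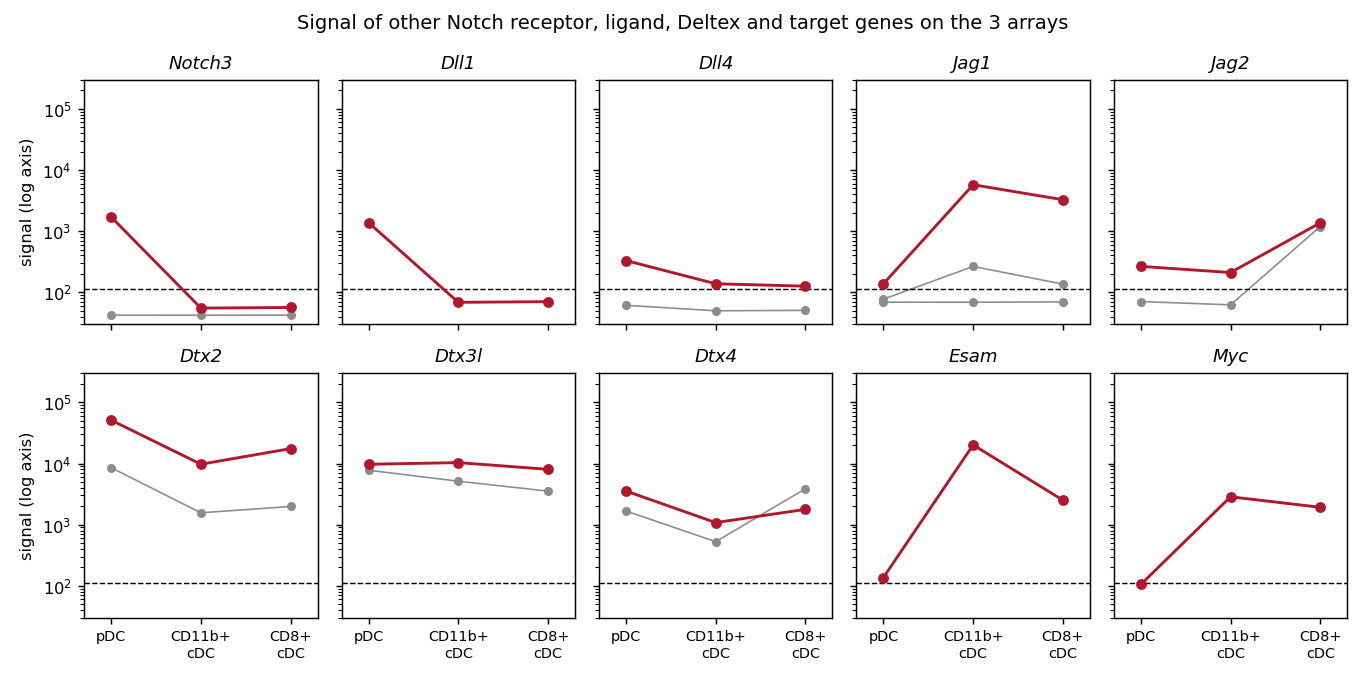
Deposited signal (log axis) of Notch3, 4 ligand genes, 3 further Deltex genes and the target genes Esam and Myc on the 3 arrays, drawn as for the 10 members (red for the probe set used, grey for others, dashed line at the background of 111). Notch3, Dll1 and Dtx2 are brightest in pDC, Jag1, Esam and Myc in CD11b+ cDC and Jag2 in CD8+ cDC; Dtx4 changes its order between its probe sets.

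Of 6 measured genes of receptor glycosylation and furin cleavage, 2 were higher in CD11b+ cDC than in pDC on the deposited scale. In CD8+ cDC, 1 was higher than in each other subset. Over all genes, 14.3% passed toward CD11b+ cDC against pDC. Toward CD8+ cDC, 14.8% passed against pDC and 9.86% against CD11b+ cDC. Poglut1, which puts glucose on the receptor's EGF repeats, gave 3134.5 in pDC, 7652.5 in CD11b+ and 24564 in CD8+ cDC. The CD8+ cDC signal was 7.84-fold that of pDC and 3.21-fold that of CD11b+ cDC, and the latter call was lost with spike-in scaling. The Fringe gene Lfng was at background in pDC and read 253 in CD11b+ cDC, at least 2.28-fold, a call lost with the 99th percentile background. Of the 6 measured ADAM and gamma-secretase genes, Adam10 was the 1 that passed 2-fold, in the pair of pDC and CD8+ cDC. It was higher in pDC, a direction called for 16.0% of all genes in that pair.

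Calls among the nuclear cofactors on the deposited scale are given beside the shares of all genes. Between pDC and CD8+ cDC these were 16.0% toward pDC and 14.8% toward CD8+ cDC. Against CD11b+ cDC, 15.0% passed toward pDC. No cofactor was called between the cDC subsets, beside 10.3% and 9.86% of all genes. Of 7 measured activators, Rbpj and Crebbp passed 2-fold, both between pDC and CD8+ cDC, with the acetyltransferase gene Crebbp 2.07-fold higher in pDC. Of 7 measured repressors, Tle1 was 2.07-fold above CD11b+ cDC and Ctbp1 2.02-fold above CD8+ cDC in pDC. These 3 folds lay just inside the threshold and each was lost in an alternative: Tle1 with spike-in scaling and with the median of probe sets, Crebbp with the latter and Ctbp1 with median scaling. Spike-in scaling added calls of Maml1, Snw1, Cir1, Tle1 and Tle3 for pDC over CD8+ cDC. Between the cDC subsets it added Maml1, Snw1, Ep300, Crebbp, Kat2a, Spen, Cir1, Hdac1 and Ctbp1 toward CD11b+ cDC. Over all genes, that scaling moved the calls for pDC over CD8+ cDC from 1730 to 3389. Those for CD11b+ over CD8+ cDC went from 1101 to 4775.

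Among genes of receptor turnover, the ubiquitin ligase gene Itch gave 10305 in pDC, 39448 in CD11b+ and 23275 in CD8+ cDC, 3.83-fold and 2.26-fold above pDC. Nedd4, another ligase gene, gave 18598, 43633 and 54919, 2.35-fold and 2.95-fold above pDC. The calls of Itch and Nedd4 between pDC and CD8+ cDC were lost with spike-in scaling, and that of Itch also with the median of probe sets. The dimmer Itch probe sets had folds of 1.04, 1.26 and 1.02 in that pair. Against CD11b+ cDC they had folds of 2.94, 1.06 and 1.57, and pDC was dimmest at each. Neurl3 read 1089 in CD11b+ cDC and lay at background elsewhere, at least 9.80-fold. Eps15, an endocytic adaptor gene, was 2.28-fold higher in pDC than in each cDC subset. Eps15 was not called against CD11b+ cDC with spike-in scaling, nor against either subset with the median of probe sets.

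Of the 5 Hes and Hey genes with a measured signal, Hes1 and Hes6 passed 2-fold in opposite directions, both between pDC and each cDC subset. Over all genes, 15.0% passed toward pDC and 14.3% toward CD11b+ cDC in that pair. Between pDC and CD8+ cDC the shares were 16.0% and 14.8%. Hes6 is not taken here as a measure of Notch activity. Hes6, which inhibits Hes1 activity, gave 18667.5 in pDC, 8960.5 in CD11b+ and 8853 in CD8+ cDC, 2.08-fold and 2.11-fold higher in pDC, the first of which was no call with spike-in scaling. Hes5, Hes7 and Hey2 differed little and lay near background, and Hey1, Heyl and Nrarp lay at background on all 3 arrays. Among targets described in lymphoid cells and DC, Esam, which marks the Notch2-dependent CD11b+ cDC, gave 136 in pDC, 20157.5 in CD11b+ and 2516 in CD8+ cDC. It was 148-fold above pDC and 8.01-fold above CD8+ cDC in CD11b+ cDC. Myc gave 2857 in CD11b+ and 1922 in CD8+ cDC and lay at background in pDC, at least 25.7-fold and 17.3-fold lower. Il2ra, Gata3 and Cd3e lay at background on all 3 arrays. Of the targets, Hes1, Esam, Myc and Cr2 were thus brightest in CD11b+ cDC, and Hes6 and Notch3 in pDC. Hes1 and Myc were not called between the cDC subsets on the deposited scale. Esam was also among the CD11b+ cDC markers used to check the labels.

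**Figure D4:**
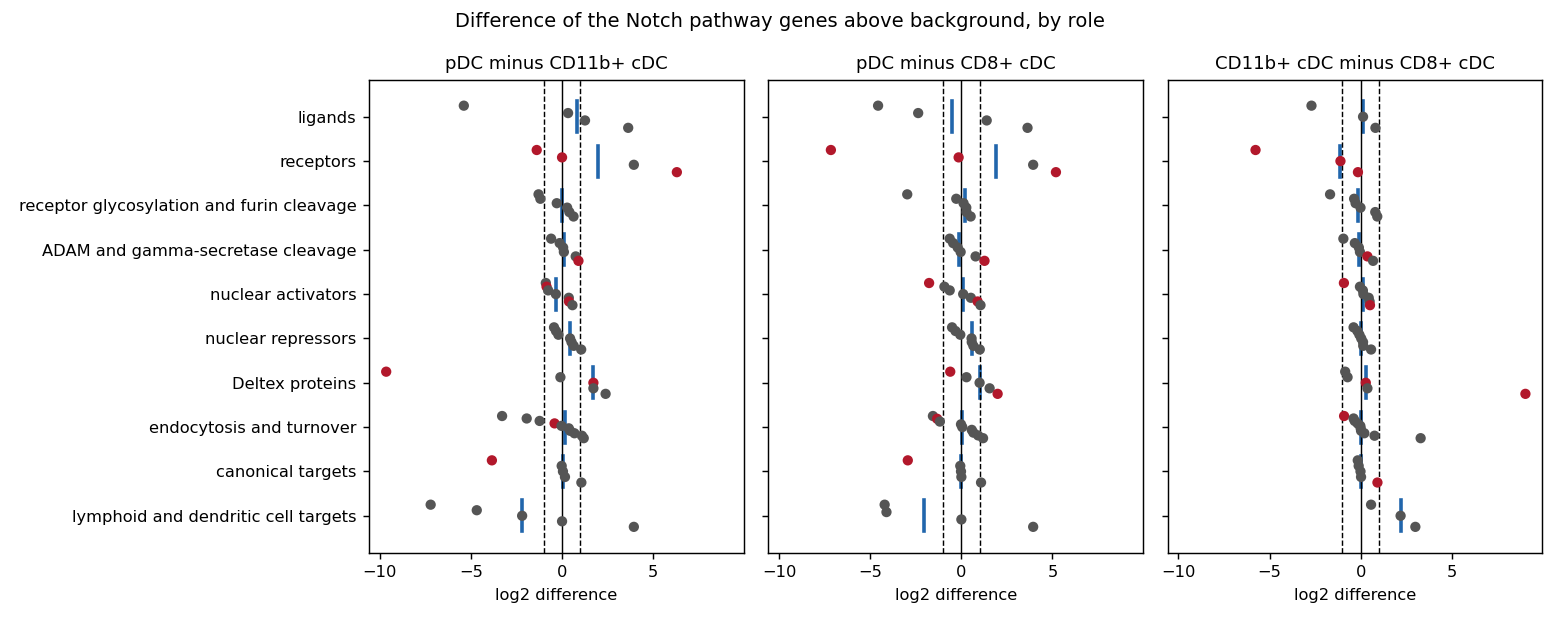
Log2 difference of every pathway gene above background on either array of a pair, by role, for the 3 pairs of cell types. Red points are members, grey points other genes, blue bars the median of each list and dashed lines 2-fold; the points of the cleavage enzymes and nuclear cofactors lie mostly within 2-fold, and those of ligands, receptors, Deltex genes and lymphoid targets spread widely.

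Genes with a like pattern were ranked by the Euclidean distance of the 3 log2 signals, each gene centred on its own mean, among 9296 genes whose brightest array reached 4 times background. Only 3 arrays enter, so the likeness is a description. Nearest to Notch1 were Fads2 (distance 0.10), Pacsin1 (0.13) and Mgst2 (0.30). Nearest to Notch4 were Hk3 (0.10), Naaa (0.14) and Il12b (0.24). Nearest to Hes1 were Otulinl (0.09), Pmaip1 (0.10) and Galm (0.14). The genes nearest to Dtx1 were Ryr3 (0.53), Ptger3 (1.2) and Sirpb1a (1.49), and 0 genes came within 0.5 of it. The number within 0.5 was 6 for Notch1, 5 for Notch4 and 53 for Hes1. It was 229 for Rbpj (nearest Gramd3, Phf10 and Pes1), 319 for Dtx3 (Tbc1d19, Intu and 2810013P06Rik), 477 for Numb (Dennd1b, Strbp and Cyp27a1) and 972 for Adam10 (Fbxo8, Prkcd and Riox2). The patterns of Dtx1, Notch4 and Notch1 were thus shared by few genes on these arrays, and those of Adam10 and Numb by many.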

How the data were processed

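Total RNA of 3 sorted subsets was measured on 1 array each, with no replicate. The deposited values are 1 linear intensity per probe set, for which the submitters' processing notes name MAS5 without a version. No source used here names a further scaling step. When each array was sorted by size, the arrays agreed to within 0.01 on the log2 scale (mean absolute deviation). Gene names came from the platform annotation: 34958 probe sets had 1 gene symbol, 932 several and 9211 none. Background was the 95th percentile of 87 sensory receptor probe sets on the array where it was highest (5 of them exceeded it on at least 1 array).

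Log2 differences, calls at 2-fold and list counts were computed in Python 3.11.15 (numpy 2.4.6, pandas 2.3.3). Differences and calls were run on copies of the pDC array with known folds put into bright genes and no noise. That run checks the arithmetic only and says nothing of the error of these arrays. The members and lists were chosen with earlier results of these data known. All members were named. Of the pathway lists, up to 4 called genes per role were named, with uncalled ones added after their values were seen, as were the 3 genes nearest to each called member. Promoters came from RefSeq. The number of arrays limits the precision.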

Additional observations from a re-analysis of the deposited data

How the results depend on the processing

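With 7 alternatives, 74 of 84 counts stayed within 1.5 times. Of the 180 member differences recomputed, 20 moved by more than the SD between probe sets. No call reversed, but only differences called on the deposited scale could count as reversed. Uncalled ones did change sign: with spike-in scaling, CD11b+ minus CD8+ cDC went from -0.92 to 0.08 for Rbpj and from -0.91 to 0.08 for Numb. No paired analysis was possible because each subset has 1 array. With spike-in scaling, members higher in CD11b+ than in CD8+ cDC went from 1 to 5 and the reverse from 2 to 1. For all pathway genes, members included, that setting moved pDC over CD11b+ cDC from 11 to 6 and pDC over CD8+ cDC from 11 to 22. It moved CD11b+ over CD8+ cDC from 4 to 25 and CD8+ over CD11b+ cDC from 4 to 2. Over all genes, calls in these directions went from 1620 to 1139, 1730 to 3389, 1101 to 4775 and 1056 to 408, so the counts moved with the bulk of genes. A fold of 3 left 6 pathway genes for pDC over CD11b+ cDC, 4 for pDC over CD8+ cDC and 1 member for CD8+ over CD11b+ cDC. By construction it calls fewer genes, and over all genes it left 911, 1034 and 573 in these directions. Using only probe sets of the plain type left 7 pathway genes for pDC over CD8+ cDC, beside 1528 of all genes. It drops those of Notch3, Ctbp1, Dtx2 and Hes6. It also put Dtx1 on its dimmer probe set, with log2 differences of -2.11 for pDC minus CD11b+ cDC and 2.11 for CD11b+ minus CD8+ cDC. The higher background gave -7.76 and 7.76 there. The median of probe sets gave 4.19 and 3.64 for Notch1 in pDC minus CD11b+ and minus CD8+ cDC. Without the floor Dtx1 was called 2-fold lower in pDC than in CD8+ cDC (log2 difference -1.20). Signals near background limit what can be said of Notch4 in CD11b+ cDC and of Dtx1 in CD8+ cDC.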

Other observations

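Some marker genes of other cells were unequal between the arrays while 4 genes each of the endothelial, T cell and B cell lists lay at background on all 3; they were picked after their values were seen. Of the endothelial genes, Cdh5, encoding the adhesion protein VE-cadherin, gave 11542 in pDC and lay at background in both cDC subsets. Kdr, a receptor for vascular endothelial growth factor, gave 18604 in pDC, 397 in CD11b+ and 112 in CD8+ cDC. Others of the list did not share this pattern. Egfl7 read 537, 499.7 and 586 and Pecam1 864, 823 and 351.5 in pDC, CD11b+ and CD8+ cDC. The source of these signals was not tested. Of the T cell genes, Cd28 gave 4830 in pDC and lay at background in the cDC subsets, and Cd5 gave 2832 in CD11b+ cDC against 343.5 and 432.5 in pDC and CD8+ cDC.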
